A study of Mus musculus with 6 samples.

Results

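The genes described here are 10 genes of poly(A) tail removal from maternal mRNA: Pabpn1l, Btg4, Zfp36l2, Cnot7, Cnot8, Cnot6l, Cnot6, Pan2, Pan3 and Parn. They were chosen by name from the 17577 genes listed for mouse germinal vesicle (GV) oocytes, and all 10 were found. Pabpn1l had already been seen to be far lower in the mutant when the set was drawn up, so its difference between genotypes is given as a description with no test. The other 9 genes were tested within a fit over all expressed genes. Among them Zfp36l2 is also only described, because it passed the expression filter of that fit through the Bnc1tr/tr libraries alone.

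GV oocytes, which are arrested in meiotic prophase, came from mice of the strain C57BL/6 J at 12 weeks of age, primed with pregnant mare serum gonadotropin. The 6 libraries comprised 3 of the genotype Bnc1tr/tr and 3 of wild type (WT), each a Smart-seq2 cDNA made, by the study's methods, from 1 oocyte. Bnc1tr/tr mice are homozygous for a small deletion in Bnc1 that shifts the reading frame of basonuclin 1, a zinc finger transcription factor, and introduces a premature stop codon. The allele is present in every cell of the mouse from conception, so oocytes and the somatic cells around them carry it alike.

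A GV oocyte near the end of growth makes little new RNA and relies on mRNA stored with poly(A) tails. When meiosis resumes, the CCR4-NOT complex shortens the tails of many stored messages and so commits them to decay. CCR4-NOT has a pair of catalytic positions, 1 filled by CNOT7 or CNOT8 (the CAF1 type) and the other by CNOT6 or CNOT6L (the CCR4 type). The complex binds few messages by itself, and adaptors bring it to them: BTG4 holds the CAF1-type subunit, PABPN1L binds the poly(A) tail and BTG4, and ZFP36L2 binds AU-rich elements in 3′ untranslated regions. PAN2-PAN3 and PARN are deadenylases outside the complex. BTG4, PABPN1L, ZFP36L2 and CNOT6L are known for the clearance of maternal mRNA in the mouse and for female fertility.

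First-strand cDNA was primed with oligo(dT), so an mRNA with a long tail can be captured more readily than the same mRNA with a short tail, and a difference in tail length cannot be told apart from a difference in abundance. Stretches near the annotated 3′ ends of the members are shown for that reason. They were read from GENCODE M21 transcripts on GRCm38.p6, 5′ to 3′, with 30 bases each placed to hold a motif. That of Btg4 ends 49 bases before the annotated end, that of Pan2 9 and that of Cnot6l 7, and the others at most 4. Capitals mark a cytoplasmic polyadenylation element (CPE, TTTTAT or TTTTAAT, to which CPEB1 binds in oocytes) or the poly(A) signal (AATAAA or ATTAAA) on the sense strand, and in Pan3 a CPE and a poly(A) signal overlap.
Pabpn1l: agaatgtaaattATTAAActtgaatatatt
Btg4: agataaatccctTTTTATgtctttttaaaa
Zfp36l2: tttgtagtttcccccAATAAAattttttgg
Cnot7: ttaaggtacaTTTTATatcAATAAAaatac
Cnot6l: ttccctgtaggcAATAAAtggccattttgc
Pan2: tgTTTTATaaAATAAAagtatTTTTATctc
Pan3: ttTTTTAATAAAgaattgcagaAATAAAct
Parn: caaaaagctgaaATTAAAgaaaatttccta
A CPE lay within the last 100 bases of the annotated transcript in 4 of the 9 members with an annotated end (Btg4, Cnot7, Pan2 and Pan3), against 20.3% of 9650 tested genes. A poly(A) signal lay there in 7 of the 9, against 82% of tested genes. Btg4 had a CPE and no such signal in that window, and Cnot6 had neither. Cnot8 was left out because its annotated transcripts lack a complete 3′ end. Over the whole 3′ untranslated region Pabpn1l and Parn held 0 CPEs, Btg4 5, Cnot7 8 and Cnot6l 16, the last over 6847 bases.

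The promoters of Pabpn1l and Btg4 are also shown, because these are the members known for expression restricted largely to oocytes. Each runs from 250 bases before to 50 bases after a RefSeq start site on GRCm38.p6, 5′ to 3′ on the strand of the gene. The Pabpn1l window covers the 5′ end of its gene. That of Btg4 lies inside the span of its gene (51102147-51119924), at a start site downstream of the 5′ end. Capitals mark matches to the E-box pattern CANNTG, which is found at the same place on both strands and is bound by basic helix-loop-helix factors.
Pabpn1l, chr8:122622686-122622985, minus strand: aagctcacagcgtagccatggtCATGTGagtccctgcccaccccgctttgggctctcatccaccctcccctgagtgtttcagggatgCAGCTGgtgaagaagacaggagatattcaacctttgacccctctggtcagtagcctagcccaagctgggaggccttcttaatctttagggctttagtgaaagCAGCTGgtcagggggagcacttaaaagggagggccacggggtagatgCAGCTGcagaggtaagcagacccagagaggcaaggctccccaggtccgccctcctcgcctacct
Btg4, chr9:51115751-51116050, plus strand: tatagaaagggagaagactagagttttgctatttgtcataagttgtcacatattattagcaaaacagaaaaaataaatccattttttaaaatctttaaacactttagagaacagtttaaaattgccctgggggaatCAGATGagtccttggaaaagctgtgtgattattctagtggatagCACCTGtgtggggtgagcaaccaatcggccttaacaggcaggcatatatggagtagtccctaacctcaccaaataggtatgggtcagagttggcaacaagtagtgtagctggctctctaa
The Pabpn1l window held 4 E-box matches and the Btg4 window 2. At least 4 were present in 6.49% of 32851 mouse promoters of this length, and at least 1 in 72.3%. The G and C content was 57.7% for Pabpn1l and 39% for Btg4, against a median of 52.7%. The reference table held a promoter for 8 of the 10 members, and Cnot7 and Zfp36l2 were not among them.

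The targeted gene was examined first. Bnc1 stood at 9.04, 6.51 and 5.83 FPKM (fragments per kilobase of transcript per M, or mega, mapped fragments) in Bnc1tr/tr replicates 1 to 3 and at 13.2, 12.5 and 16.2 FPKM in WT replicates 1 to 3. The groups did not overlap, and the log2 fold change was -0.89 (SE 0.20, adjusted p = 0.0090). The allele keeps nearly all of the transcript, so this level checks the genotype labels only in part. Fold changes are on the scale log2(FPKM + 1), Bnc1tr/tr minus WT, from limma with Benjamini-Hochberg adjustment over the 10560 genes whose mean reached 1 FPKM. A gene was called where its adjusted p was under 0.05 and its log2 fold change lay beyond 0.5 in either direction.

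The files gave no counts, and the steps between low FPKM values implied about 13.2 to 21.6 M fragments per library. All 14 oocyte markers stood at 10.8 FPKM or more in every library. The 7 blood and immune markers summed to 1.09 to 61.5 FPKM in Bnc1tr/tr and 1.39 to 2.94 FPKM in WT. Of these, Ptprc, Cd74, Lyz2 and both globins were present in Bnc1tr/tr replicates 1 and 2, with Lyz2 at 5.81 and 48.0 FPKM, and all 5 were at 0 in Bnc1tr/tr replicate 3 and in WT. Cd68 stood at 12.2, 3.64 and 0.96 FPKM in Bnc1tr/tr and at 2.94, 1.82 and 1.39 FPKM in WT, and Adgre1 at 0.09, 0.09 and 0.13 FPKM against 0. The summed level of 10 granulosa and cumulus markers was 43.3 to 60.4 FPKM in Bnc1tr/tr and 22.8 to 39.8 FPKM in WT, with Foxl2, Wt1 and Has2 at or near 0 in all. Cyp19a1 made up most of that sum, at 27.5, 44.4 and 33.5 FPKM in Bnc1tr/tr and 23.5, 29.0 and 17.4 FPKM in WT. Fshr stood at 4.54, 5.83 and 5.37 FPKM in Bnc1tr/tr and at 0.31, 0.74 and 0 FPKM in WT. Kitl (3.1, 1.94 and 2.33 FPKM against 1.13, 1.12 and 1.18 FPKM) and Nr5a2 (7.09, 5.15 and 4.1 FPKM against 3.49, 3.82 and 3.85 FPKM) were also higher in every Bnc1tr/tr library. Inha (0.18, 1.81 and 0.09 FPKM against 6.78, 3.45 and 0.04 FPKM) and Hsd17b1 (0.21, 0.38 and 0 FPKM against 0.93, 1.43 and 0 FPKM) had the lower mean in Bnc1tr/tr. The 5 theca and stroma markers summed to 5.97 to 8.53 FPKM in Bnc1tr/tr and 1.73 to 2.27 FPKM in WT. Dcn made up most of that sum, at 6.46, 6.95 and 4.93 FPKM in Bnc1tr/tr and 1.36, 1.48 and 2.02 FPKM in WT. Pdgfra was also higher in every Bnc1tr/tr library (0.63, 0.5 and 0.38 FPKM against 0.04, 0.07 and 0.07 FPKM). Star overlapped between genotypes, and Cyp17a1 and Col1a1 stood at 0.32 FPKM or less in all. WT replicate 3 stood apart from the other WT libraries for several members below. The values of all tested genes lay higher in Bnc1tr/tr by a median log2 fold change of 0.15, a shift that median-ratio scaling turned to -0.02 and quantile normalization to -0.10, so each value below is also given relative to it where it matters.

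In WT oocytes the 10 transcripts covered a wide range of levels. Btg4 was the most abundant, with a mean of 2471 ± 192 FPKM (SD, n = 3), and ranked 23 to 30 of all genes in the 3 libraries. Cnot7 followed at 419 ± 5.73 FPKM, and the libraries of these genes did not overlap with each other or with any other member. Cnot8 (82.0 ± 25.2 FPKM), Pan3 (54.5 ± 27.0 FPKM) and Pabpn1l (45.8 ± 7.75 FPKM) came next and overlapped in the WT libraries as neighbours. Cnot6l (29.6 ± 7.39 FPKM), Parn (13.5 ± 2.53 FPKM), Pan2 (9.56 ± 0.358 FPKM) and Cnot6 (3.89 ± 1.01 FPKM) followed without overlap between neighbours. Zfp36l2 was lowest at 0.347 ± 0.0153 FPKM.

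**Figure D1:**
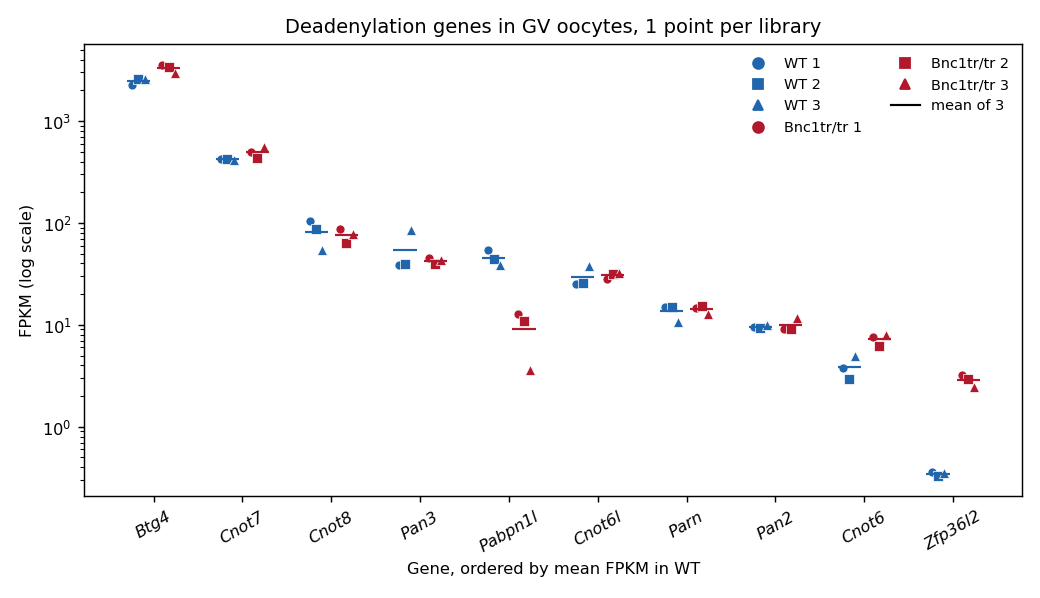
FPKM of the 10 deadenylation genes on a log axis, 1 point per library (blue, WT; red, Bnc1tr/tr; the marker shape gives the replicate number) with the group mean as a line. The 3 Bnc1tr/tr libraries of Pabpn1l lie at 3.64 to 12.7 FPKM, below all WT libraries at 38.6 to 54.0 FPKM and overlapping with those of Pan2 and Cnot6, while Zfp36l2 remained the lowest member in both genotypes.

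Among the adaptors, Pabpn1l, the embryonic poly(A)-binding protein that docks on BTG4, showed the difference for which the set was drawn up. It stood at 12.7, 10.8 and 3.64 FPKM in Bnc1tr/tr replicates 1 to 3 and at 54.0, 44.7 and 38.6 FPKM in WT replicates 1 to 3. Every Bnc1tr/tr library was below every WT library, and replicate 3 was the lowest of its group. The group means were 9.03 ± 4.76 and 45.8 ± 7.75 FPKM (SD, n = 3), a WT level 5.07-fold that of Bnc1tr/tr, and the log2 fold change was -2.35. The transcript took rank 4977 to 7707 of all genes in Bnc1tr/tr and rank 2084 to 2339 in WT, so its place among the transcripts of the same library moved as well. About 58 to 169 fragments lay behind the Bnc1tr/tr values. The replicates of Bnc1tr/tr varied more (coefficient of variation 52.7%) than those of WT (16.9%).

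Pabpn1l lies on chromosome 8 at 122619471-122622735 of GRCm38.p6, on the minus strand. Its transcripts share 0% of their 31-base words with those of other genes, so no stretch of that length matches a paralog. Its nuclear paralog Pabpn1, which acts in nuclear polyadenylation, stood at 14.1, 10.9 and 13.9 FPKM in Bnc1tr/tr and at 7.42, 9.48 and 12.0 FPKM in WT. The groups overlapped (log2 fold change 0.41, SE 0.21, adjusted p = 0.16), and 19.9% of the Pabpn1 words occur in other genes, so its level is uncertain. Pabpc1l, the cytoplasmic poly(A)-binding protein of oocytes, stood at 28.5, 27.5 and 19.1 FPKM in Bnc1tr/tr and at 35.7, 31.1 and 27.9 FPKM in WT. The libraries of Pabpc1l overlapped between genotypes, and it did not pass the test (log2 fold change -0.34, SE 0.20, adjusted p = 0.24).

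Btg4, the adaptor that links the CAF1-type subunit to its messages, had the higher mean in Bnc1tr/tr. It stood at 3579, 3385 and 2955 FPKM in Bnc1tr/tr and at 2250, 2570 and 2592 FPKM in WT. No Bnc1tr/tr library overlapped with WT, and Btg4 took rank 12 to 15 in Bnc1tr/tr against rank 23 to 30 in WT. The mean was 33.8% higher in Bnc1tr/tr, with a log2 fold change of 0.42 (SE 0.16, 95% interval 0.05 to 0.79) and an adjusted p of 0.083. Both missed the thresholds for a call. Against the median shift of 0.15 the difference was 0.27. The value remained positive under all 14 alternatives, and quantile normalization alone called it (0.62, adjusted p = 0.014, range over the alternatives 0.014 to 0.57). Btg4 lies on chromosome 9 at 51102147-51119924, and at about 42612 to 72456 fragments per library its counting error was small.

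Zfp36l2, an activator of decay through AU-rich elements, was scarce in WT oocytes. It stood at 3.21, 2.92 and 2.47 FPKM in Bnc1tr/tr and at 0.36, 0.33 and 0.35 FPKM in WT. The genotypes were fully separated, and the values within each group lay close together. The mean of Bnc1tr/tr was 8.27-fold that of WT, and the log2 fold change was 1.52 (SE 0.16), or 1.37 relative to all tested genes. The size ranged from 0.96 under quantile normalization to 2.72 with a pseudocount of 0.1. The gene passed the expression filter through the Bnc1tr/tr libraries alone, so it could enter the fit only by being higher there, and its values are given as a description. About 141 to 164 fragments lay behind the Bnc1tr/tr values and 18 to 25 behind those of WT.

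Zfp36l2 is also expressed outside the oocyte. The summed granulosa and stroma markers were higher in Bnc1tr/tr, Fshr among them, though Inha and Hsd17b1 were not. Dcn made up most of the stroma sum. In Bnc1tr/tr replicates 1 to 3 Zfp36l2 stood at 3.21, 2.92 and 2.47 FPKM. Over the same libraries Cd68 stood at 12.2, 3.64 and 0.96 FPKM and Cd74 at 7.07, 1.08 and 0 FPKM. Lyz2 stood there at 5.81, 48.0 and 0 FPKM and Adgre1 at 0.09, 0.09 and 0.13 FPKM. The part of the blood, granulosa and stroma markers in this difference was not tested. Zfp36l2 lies on chromosome 17 at 84183924-84187947, shares 0.0571% of its words with other genes (Zfp36l1 first among them), and has exons that overlap those of an unlisted gene model. Its 3′ untranslated region of 1822 bases held 3 copies of TATTTAT, the AU-rich letters that proteins of this family bind, and 4 CPEs.

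Within CCR4-NOT, transcripts of the CAF1-type subunits made up most of the catalytic pool. Cnot7 accounted for 75.9% to 82.3% of the summed FPKM of the 4 catalytic genes in the 6 libraries, Cnot8 for 10.7% to 18.8%, Cnot6l for 4.54% to 7.46% and Cnot6 for 0.544% to 1.23%. The summed level was 610 ± 65.9 FPKM in Bnc1tr/tr and 535 ± 21.6 FPKM in WT (SD, n = 3).

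Cnot7 stood at 497, 437 and 550 FPKM in Bnc1tr/tr and at 420, 425 and 413 FPKM in WT. Its groups were likewise separate, with WT values that barely varied, but the difference did not pass the test (log2 fold change 0.23, 95% interval -0.13 to 0.60, adjusted p = 0.31), and relative to all genes it was 0.09. Cnot8, its paralog, stood at 87.8, 64.0 and 78.3 FPKM in Bnc1tr/tr and at 104, 87.0 and 54.7 FPKM in WT. The WT libraries of Cnot8 spanned all of the Bnc1tr/tr values (log2 fold change -0.06, 95% interval -0.63 to 0.51, adjusted p = 0.89). Cnot8 is uncertain, because 11.7% of its words occur in other genes, first among them the gene model Gm18860. The exons of Cnot7 overlap those of Zdhhc2, which was listed at 0.05 to 0.61 FPKM and can hold little of its signal.

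Cnot6l, the CCR4-type nuclease of oocytes, stood at 28.3, 31.3 and 32.5 FPKM in Bnc1tr/tr and at 25.1, 25.6 and 38.2 FPKM in WT. WT replicate 3 was the highest of the 6 libraries, and the others lay close together. The log2 fold change was 0.07 (95% interval -0.38 to 0.53, adjusted p = 0.81), with the sign turning to -0.04 after upper-quartile scaling, -0.11 after median-ratio scaling and -0.09 under quantile normalization.

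Cnot6, the paralog of Cnot6l, was the member of CCR4-NOT with a called difference. It stood at 7.66, 6.17 and 7.93 FPKM in Bnc1tr/tr and at 3.78, 2.94 and 4.96 FPKM in WT. All Bnc1tr/tr libraries were above all WT libraries, and the mean was 1.86-fold that of WT. The log2 fold change was 0.77 (SE 0.20, 95% interval 0.32 to 1.22, adjusted p = 0.018), or 0.62 relative to all tested genes. The call was lost under median-ratio scaling (adjusted p = 0.053) and quantile normalization (0.16), and without Bnc1tr/tr replicate 1 (0.059), Bnc1tr/tr replicate 3 (0.063) or WT replicate 2 (0.081), and over 14 alternatives its adjusted p lay between 0.0067 and 0.16. The direction was the same in each, with log2 fold changes of 0.41 to 0.92.

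**Figure D2:**
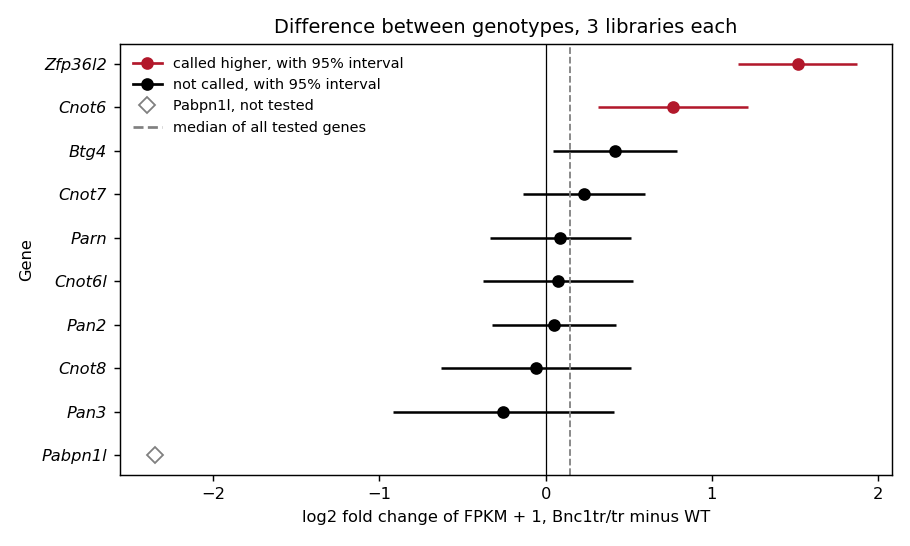
Log2 fold change of FPKM + 1, Bnc1tr/tr minus WT, for the 10 genes (circles, with 95% intervals from limma for the 9 tested genes; red, called higher; open diamond, Pabpn1l, given with no test); the dashed line is the median of all tested genes, 0.15. The interval of Cnot6 lies wholly above the dashed line, that of Btg4 lies above 0 but spans the dashed line, and 6 intervals span 0. Zfp36l2, also drawn red, entered the fit only through its Bnc1tr/tr values, so its interval is a description.

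Multiplying a library by a constant, as upper-quartile and median-ratio scaling do, leaves a transcript ratio within it as it was, whereas quantile normalization moves it. The ratio of Cnot6l to Cnot6 was 3.69, 5.08 and 4.10 in Bnc1tr/tr and 6.64, 8.71 and 7.69 in WT. The groups did not overlap, and the mean log2 ratio was 2.09 ± 0.23 against 2.93 ± 0.20 (SD, n = 3), a difference of -0.84 with an exact two-sided permutation p of 0.10. That is the smallest p that 3 libraries against 3 allow, and it was 0.50 after Benjamini-Hochberg adjustment over the 5 ratios examined. After quantile normalization the difference was -0.58. The ratio of Cnot7 to Cnot8 was 5.66, 6.83 and 7.03 in Bnc1tr/tr and 4.03, 4.88 and 7.56 in WT, with overlapping groups (difference in mean log2 ratio 0.29, exact permutation p = 0.40). The balance of CCR4-type to CAF1-type transcripts, that of Cnot6 plus Cnot6l to Cnot7 plus Cnot8, was 0.0614, 0.0748 and 0.0644 in Bnc1tr/tr and 0.0551, 0.0558 and 0.0921 in WT. It differed by 0.02 in mean log2 ratio (exact permutation p = 1), and by -0.19 after quantile normalization. The ratio of Btg4 to the Cnot7 it binds was 7.20, 7.74 and 5.37 in Bnc1tr/tr and 5.36, 6.05 and 6.27 in WT, and the groups overlapped (difference 0.19, exact permutation p = 0.30).

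**Figure D3:**
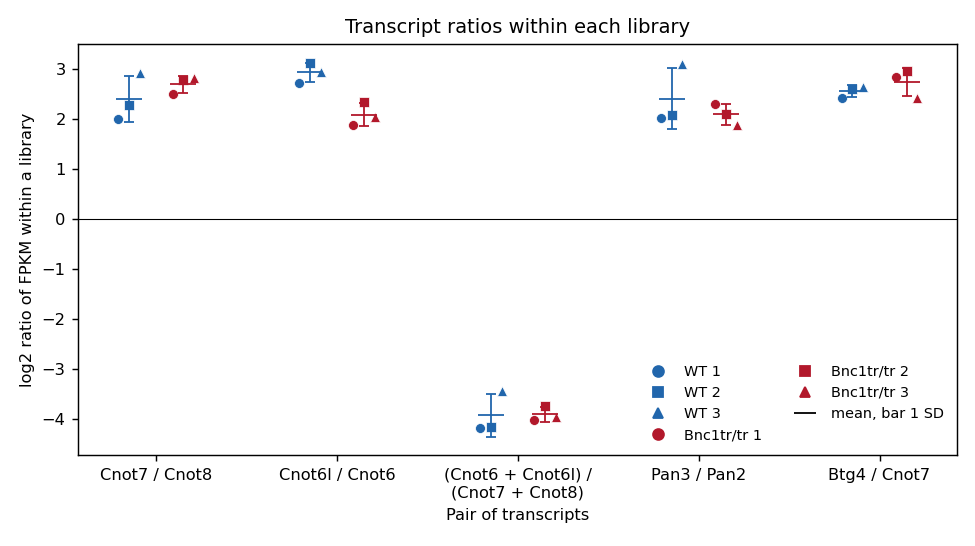
Log2 ratios of FPKM within each library for 5 pairs or sums of transcripts (blue, WT; red, Bnc1tr/tr; marker shape, replicate number; horizontal mark and bar, mean and 1 SD of 3 libraries). The Cnot6l to Cnot6 ratio is the pair without overlap, at 1.88 to 2.34 in Bnc1tr/tr and 2.73 to 3.12 in WT, and WT replicate 3 stands above the other WT libraries for Pan3 to Pan2 at 3.11.

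The deadenylases outside CCR4-NOT showed no called difference. Pan2, the catalytic subunit of PAN2-PAN3, stood at 9.15, 9.19 and 11.6 FPKM in Bnc1tr/tr and at 9.50, 9.23 and 9.94 FPKM in WT (log2 fold change 0.05, 95% interval -0.32 to 0.42, adjusted p = 0.85), with values of -0.05, -0.12 and -0.24 under the 3 scalings named for Cnot6l. Pan3, which brings PAN2 to poly(A)-binding protein, stood at 44.9, 39.3 and 42.9 FPKM in Bnc1tr/tr and at 38.6, 39.2 and 85.6 FPKM in WT. The mean of Pan3 in WT rests on replicate 3, and the log2 fold change of -0.25 (95% interval -0.92 to 0.41, adjusted p = 0.55) became 0.12 without it. The ratio of Pan3 to Pan2 likewise differed by -0.31 in mean log2 ratio with all libraries (exact permutation p = 0.70), by 0.04 without WT replicate 3 and by -0.079 after quantile normalization. Parn, a deadenylase that also binds the cap, stood at 14.7, 15.4 and 12.9 FPKM in Bnc1tr/tr and at 14.9, 15.1 and 10.6 FPKM in WT. Its groups overlapped (log2 fold change 0.09, 95% interval -0.34 to 0.51, adjusted p = 0.76), with values of -0.02, -0.08 and -0.17 under those scalings.

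Of the 9 members other than Pabpn1l, Zfp36l2 entered the test only through its high Bnc1tr/tr values, and its call is set against no background. Of the other 8, 1 was called higher in Bnc1tr/tr (Cnot6), beside 24.1% of all tested genes called higher, and 0 were called lower, beside 7.68%. Btg4, Cnot7 and Cnot6 had groups without overlap, with Bnc1tr/tr higher, as had 32.7% of tested genes, or 46.8% counting both directions. The median log2 fold change of the 9, Zfp36l2 included, was 0.09, beside 0.15 for all tested genes. Calls in either direction took 31.8% of tested genes, so the libraries of the genotypes differed widely. The 95% intervals of the 7 members not called reached from -0.92 to 0.79.

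The other genes of the pathway were examined in 8 lists of 81 genes, of which 67 were tested. Of these, 17 were called higher and 3 lower, with a median log2 fold change of 0.22, beside 24.1% and 7.68% of all tested genes. Among the 17, Dis3l2 passed the expression filter through the Bnc1tr/tr libraries alone. With 1 library left out the calls numbered 10 without WT replicate 2, 11 without Bnc1tr/tr replicate 1 and 13 without Bnc1tr/tr replicate 3. The lists are described by their counts and by the genes named under a fixed rule. Bnc1tr/tr replicates 1 and 2 hold the blood and immune transcripts. Without both, 1 Bnc1tr/tr library remained, and fewer genes were called in the lists and over all genes. The smaller number of libraries and the loss of those transcripts cannot be told apart there.

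The scaffold and accessory subunits of CCR4-NOT had 0 of 7 genes called, beside 31.8% of all tested genes, with a median of -0.18. Groups without overlap were found for 2 of the 7 with Bnc1tr/tr higher and 3 with Bnc1tr/tr lower, beside 32.7% and 14.1% of tested genes. Quantile normalization called 3 of the 7. Under upper-quartile or median-ratio scaling, with the replicate block, and without Bnc1tr/tr replicate 1 or WT replicate 3, 1 was called. Cnot1, the scaffold on which the complex assembles, stood at 7.33, 7.66 and 8.73 FPKM in Bnc1tr/tr and at 10.02, 10.3 and 9.02 FPKM in WT, without overlap (log2 fold change -0.28, adjusted p = 0.22). Other genes hold 5.60% of its 31-base words, and quantile normalization called it lower (-0.58, adjusted p = 0.024, range over the alternatives 0.024 to 0.75). Cnot2 stood at 40.6 to 41.3 FPKM in Bnc1tr/tr and 41.9 to 49.7 FPKM in WT (-0.18, adjusted p = 0.43). Cnot4, a ubiquitin ligase bound to the complex, stood at 37.2 to 42.4 FPKM against 26.9 to 31.4 FPKM (0.45, adjusted p = 0.056). Cnot9, chosen after its values were seen, had the largest difference of the list. It stood at 12.2 to 18.0 FPKM against 19.3 to 31.8 FPKM (-0.67, adjusted p = 0.063).

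In the BTG/TOB family, the relatives of Btg4 that also bind CAF1-type subunits, 3 of 5 genes were called higher and 0 lower. The shares of all tested genes were 24.1% and 7.68%. The median log2 fold change of the family was 0.86, beside 0.15 for all tested genes. Btg2 stood at 22.8, 17.1 and 17 FPKM in Bnc1tr/tr and at 3.36, 3.70 and 6.29 FPKM in WT (log2 fold change 1.90, SE 0.23, adjusted p = 0.00036). Btg1 stood at 13.5, 8.26 and 16.0 FPKM against 3.69, 2.94 and 3.09 FPKM (1.64, SE 0.24, adjusted p = 0.00092). Both were called in each of the 13 alternatives that kept at least 2 libraries per genotype. Btg1 and Btg2 are widely expressed in somatic cells. The summed granulosa and stroma markers were higher in Bnc1tr/tr, Fshr among them and the stroma sum mostly through Dcn, while Inha and Hsd17b1 were not. The part of these markers in the difference was not tested. Tob2 stood at 26.9, 16.6 and 21.6 FPKM against 11.5, 11.8 and 10.5 FPKM (0.86, SE 0.20, adjusted p = 0.010). Tob1 stood at 9.47 to 12.7 FPKM against 7.04 to 7.81 FPKM and did not pass the test (0.45, adjusted p = 0.077). All 4 genes lay well below Btg4 in every library.

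Among the RNA-binding and miRNA-linked recruiters of CCR4-NOT, 2 of 9 tested genes were called higher, beside 24.1% of all tested genes. The median of the list was 0.22. Tnrc6b, a partner of Argonaute proteins, stood at 2.50 to 4.05 FPKM in Bnc1tr/tr and 1.42 to 1.97 FPKM in WT (log2 fold change 0.65, SE 0.19, adjusted p = 0.029), a call lost under 7 of 14 alternatives, among them those without Bnc1tr/tr replicate 1 (adjusted p = 0.10) or 3 (0.076) and without WT replicate 2 (0.086) or 3 (0.058). The count for this list was 0 in each of these 4 fits and under median-ratio scaling, and 1 under upper-quartile scaling or quantile normalization. Ythdf2, the reader of methylated adenosine that acts in oocytes, stood at 21.4 to 26.4 FPKM and 16.5 to 23.8 FPKM (0.22, adjusted p = 0.41). Nanos2 stood at 15.5 to 19.1 FPKM and 19.8 to 23.0 FPKM (-0.30, adjusted p = 0.20), and quantile normalization called it lower (-0.51, adjusted p = 0.043, range over the alternatives 0.043 to 0.45).

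Of the poly(A)-binding proteins, relatives of Pabpn1l in function, 0 of 4 tested genes were called, beside 31.8% of all tested genes. Pabpc4, the most abundant, stood at 24.8 to 42.0 FPKM in Bnc1tr/tr and 32.98 to 47.7 FPKM in WT (log2 fold change -0.34, adjusted p = 0.31). In the list headed other poly(A) nucleases, 3 of 5 tested genes were called higher, beside 24.1% of all tested genes, with a median of 0.55. Its genes were chosen by name, and whether their proteins remove poly(A) was not examined. Angel2 stood at 187, 195 and 220 FPKM in Bnc1tr/tr against 131, 142 and 136 FPKM in WT (0.55, SE 0.16, adjusted p = 0.026). Its call was lost under 7 of 14 alternatives, among them those without Bnc1tr/tr replicate 2 (adjusted p = 0.060) or 3 (0.093) and without WT replicate 1 (0.072) or 2 (0.077). Pde12, which removes poly(A) in mitochondria, stood at 4.86 to 7.41 FPKM against 2.96 to 3.70 FPKM (0.77, SE 0.19, adjusted p = 0.014), and 4 of 14 alternatives lost the call, among them those without Bnc1tr/tr replicate 1 (0.052) or WT replicate 2 (0.059). Its exons overlap those of Arf4, listed at 2.86 to 12.7 FPKM. The calls in this list numbered 1 without Bnc1tr/tr replicate 1 or 2 or under quantile normalization, and 0 without WT replicate 2. Noct stood at 51.2 to 59.98 FPKM against 34.1 to 50.4 FPKM (0.39, adjusted p = 0.15).

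The list of terminal uridylation and 3′ decay, the steps that follow deadenylation, was the list with calls in both directions. Of 13 tested genes, 4 were called higher and 3 lower, beside 24.1% and 7.68% of all tested genes. Dis3l2, among the 4, stood at 2.89, 2.38 and 2.54 FPKM in Bnc1tr/tr and at 0.82, 0.77 and 0.60 FPKM in WT. It passed the expression filter through the Bnc1tr/tr libraries alone, so its call is set against no background. Exosc9, a subunit of the exosome, stood at 17.1, 18.2 and 18.4 FPKM in Bnc1tr/tr and at 67.0, 58.1 and 61.8 FPKM in WT (log2 fold change -1.74, SE 0.15, adjusted p = 5.7e-05). The WT level was 3.48-fold that of Bnc1tr/tr, and the call held under all 14 alternatives. Its exons overlap those of Ccna2, which was listed at 39.7 to 83.0 FPKM, and the counting is not stated to use strand, so reads of the overlap cannot be told apart. Without Bnc1tr/tr replicate 1 the calls of this list numbered 4, and without WT replicate 2 they numbered 3. The most abundant exosome transcripts, Exosc7 (279 to 403 FPKM over the 6 libraries) and Exosc8 (216 to 306 FPKM), were not called. Tut7, which adds uridine to shortened tails in oocytes, was chosen after its values were seen: it stood at 18.4, 22.3 and 21.9 FPKM in Bnc1tr/tr and at 5.51, 7.45 and 6.46 FPKM in WT (1.55, SE 0.17, adjusted p = 0.00023). Its exons overlap those of Etohd2 and Gm49354, and other genes hold 2.87% of its 31-base words. The remaining calls of the list, which the naming rule left out, were Exosc2 and Exosc3 higher and Exosc1 and Exosc5 lower.

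In decapping and 5′ decay 2 of 13 tested genes were called higher, beside 24.1% of all tested genes, with a median of 0.00. Ddx6, a helicase that joins CCR4-NOT to decapping, stood at 9.33, 8.79 and 7.48 FPKM in Bnc1tr/tr and at 5.63, 4.41 and 1.42 FPKM in WT (log2 fold change 1.10, SE 0.34, adjusted p = 0.035), with WT replicate 3 the lowest. The call was lost under 7 of 14 alternatives, among them those without Bnc1tr/tr replicate 1 (0.10), 2 (0.096) or 3 (0.066). The calls in this list numbered 1 in each of these 3 fits and with a pseudocount of 0.1, 4 under upper-quartile scaling and 5 under median-ratio scaling. Lsm3 and Lsm7, the most abundant of the list, ranged over 534 to 953 FPKM and 223 to 518 FPKM and were highest in WT replicate 3. For cytoplasmic polyadenylation, the opposite of deadenylation, 3 of 11 tested genes were called higher, beside 24.1% of all tested genes, with a median of 0.28. Cpeb4 stood at 8.90, 9.94 and 10.7 FPKM in Bnc1tr/tr and at 4.05, 3.85 and 4.53 FPKM in WT (1.08, SE 0.16, adjusted p = 0.0011), called in all 14 alternatives. Cpeb1, the factor that binds the CPEs shown above in GV oocytes, stood at 153, 141 and 145 FPKM against 181, 140 and 114 FPKM, and its groups overlapped (0.04, adjusted p = 0.90; -0.07 and -0.14 after upper-quartile and median-ratio scaling). The noncanonical poly(A) polymerase Tent4a stood at 51.0 to 70.3 FPKM against 34.7 to 40.3 FPKM (0.72, SE 0.18, adjusted p = 0.015), and 5 of 14 alternatives lost the call, among them those without Bnc1tr/tr replicate 1 (0.056) or 3 (0.050) and without WT replicate 2 (0.063). Its exons overlap those of Nsun2, listed at 5.31 to 9.50 FPKM. For cytoplasmic polyadenylation the calls numbered 1 without Bnc1tr/tr replicate 1 or 3 or under median-ratio scaling, and 2 without Bnc1tr/tr replicate 2 or WT replicate 2.

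**Figure D4:**
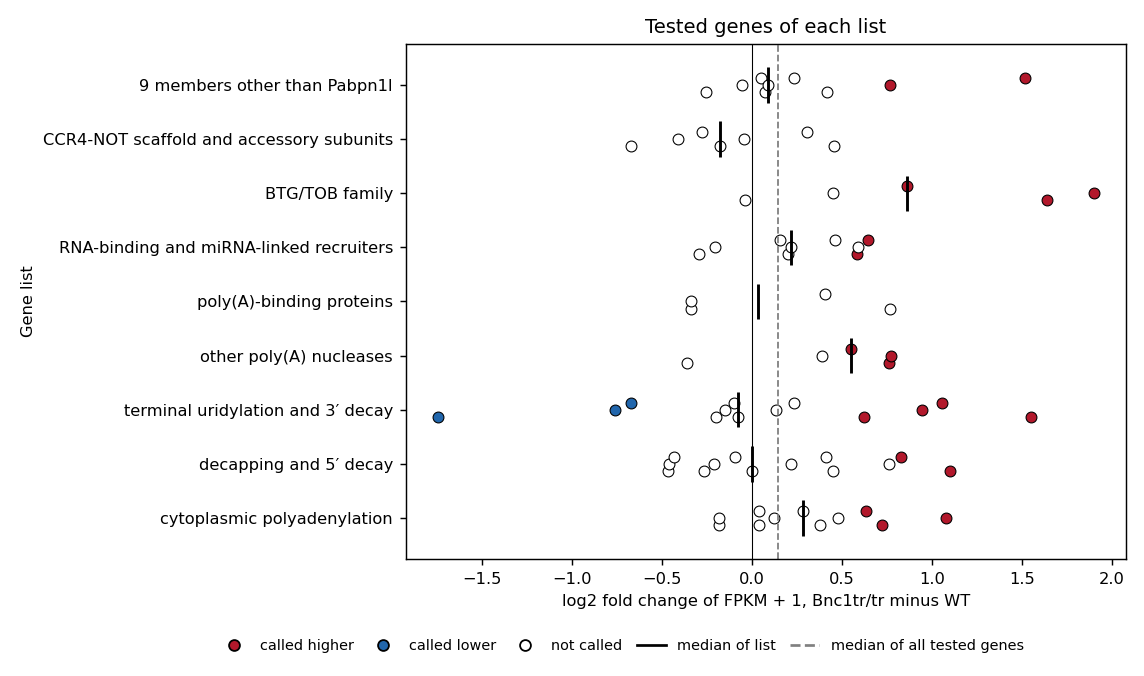
Log2 fold change of FPKM + 1, Bnc1tr/tr minus WT, for each tested gene of the 8 pathway lists and for the 9 members other than Pabpn1l, 1 circle per gene (red, called higher; blue, called lower; white, not called), with the median of each list as a short line and the median of all tested genes as a dashed line at 0.15. The BTG/TOB family has the highest median, 0.86, and terminal uridylation and 3′ decay spans -1.74 to 1.55 with calls in both directions. Zfp36l2 and Dis3l2, both drawn red, entered the fit only through their Bnc1tr/tr values.

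The genes whose pattern over the 6 libraries was most like that of Pabpn1l were found by Pearson's r of log2(FPKM + 1) among the 5276 genes whose mean reached 10 FPKM. They were Gm2042 (r = 0.993), Ngrn (0.993), Lsp1 (0.988), Pcca (0.988) and Dctn5 (0.988). These values are a description over 6 libraries that fall into 2 genotypes, and 173 genes had r over 0.9. Lsp1 was nearest to Pabpn1l in the size of the difference, at 16.5, 16.0 and 8.97 FPKM in Bnc1tr/tr and 61.2, 56.7 and 40.8 FPKM in WT. Gm2042 differed least, at 812 to 919 FPKM against 1116 to 1142 FPKM.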

How the data were processed

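Polyadenylated RNA of GV oocytes was amplified by a modified Smart-seq2 procedure and sequenced by the study as 6 libraries, 3 Bnc1tr/tr and 3 WT, grouped by the genotype in the labels. The authors deposited a table of 17577 genes per library in FPKM, rounded to 2 decimals, without counts. The submitters' processing notes name HISAT2 2.0.4, Bowtie2 2.2.5, RSEM 1.2.12 and GRCm38.p6, and the annotation, the strand setting and any gene filter were not given in the sources used here. Because FPKM scales each gene by the whole library, a change in abundant transcripts moves the others. The cDNA was amplified without molecular identifiers, so fragments are not independent molecules and their number bears on counting error only. Nothing in the labels says that the libraries came from separate mice, although the study speaks of biological replicates, so p-values measure the spread between these libraries.

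For the comparison of genotypes, limma 3.58.1 (R 4.3.3) was run on log2(FPKM + 1), which understates the change of low genes, over the 10560 genes whose mean reached 1 FPKM, and the code was tested on simulated data. Ratios were compared by exact two-sided permutation tests. Alternatives were a pseudocount of 0.1, no filter, upper-quartile and median-ratio scaling, quantile normalization, trend and robust variances, the replicate number as a block, each library left out, and, chosen after seeing the data, Bnc1tr/tr replicates 1 and 2 left out together. Members and lists were chosen with earlier results of these data known. Named genes were the members, Pabpn1, Pabpc1l, Cnot1, Tob1, Btg1 and Bnc1, the 2 most abundant genes and the called gene of largest change in each list, and the 5 genes most like Pabpn1l. Depth was estimated from the periodicity of FPKM below 2 times length in 809 genes with 1 transcript of 450 to 1600 bases, to within the agreement of estimates from separate sets of genes (13.0 to 13.2 M for the shallowest library). In all, 25 symbols that had become dates were restored through the gene ID. Sequences came from RefSeq and GENCODE M21.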

Additional observations from a re-analysis of the deposited data

How the results depend on the processing

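Zfp36l2, which entered the fit only through Bnc1tr/tr, dropped under the expression filter without Bnc1tr/tr replicates 1 and 2. Over 14 alternatives Cnot6 was called in 8, and 0 members were called lower in any. Of 139 alternative values of the members, 113 kept their direction and call, 18 reversed, 6 lost the call (all Cnot6), 1 gained it (Btg4) and 1 moved (Pabpn1l, -3.32 without Bnc1tr/tr replicates 1 and 2). Among other named genes 317 of 364 kept both. These values reversed under a scaling: with upper-quartile scaling Cnot6l read -0.037, Pan2 -0.054, Parn -0.018, Cpeb1 -0.072 and Lsm7 -0.11, with median-ratio scaling Cnot6l -0.11, Pan2 -0.12, Parn -0.085, Cpeb1 -0.14, Exosc8 -0.052 and Lsm7 -0.18, and under quantile normalization Cnot6l -0.087, Pan2 -0.24 and Parn -0.17. Leaving out 1 library gave -0.32 to 0.14 for Cnot8, -0.028 to 0.26 for Cnot6l, -0.053 to 0.10 for Pan2, -0.45 to 0.12 for Pan3, -0.066 to 0.17 for Parn, -0.12 to 0.21 for Cpeb1, -0.29 to 0.12 for Lsm3 and -0.27 to 0.33 for Lsm7, and without Bnc1tr/tr replicates 1 and 2 Parn read -0.053. None of these values passed the test. The ratio of Cnot6 plus Cnot6l to Cnot7 plus Cnot8 read -0.19 after quantile normalization and -0.11 to 0.27 with a library left out, and that of Pan3 to Pan2 -0.50 to 0.038.

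Members called higher numbered 1 after median-ratio scaling and 1 to 2 with a library left out (1 without Bnc1tr/tr replicate 1 or 3 or WT replicate 2). Each count of called members in this paragraph includes Zfp36l2, which entered the fit only through its Bnc1tr/tr values. Genes called over the whole table numbered 3358, of which 75.8% were higher (66.1% after upper-quartile scaling, 59.3% with median-ratio scaling, 46.6% under quantile normalization). Genes called higher numbered 1637 after quantile normalization, and genes called lower 1395 with median-ratio scaling, 1877 under quantile normalization and 416 to 1037 with a library left out (523 and 535 without Bnc1tr/tr replicates 1 and 3, 416 without WT replicate 2). Calls in the pathway lists numbered 20, and 10 to 20 with a library left out (11 and 13 without Bnc1tr/tr replicates 1 and 3, 10 without WT replicate 2). Without Bnc1tr/tr replicates 1 and 2 together, where the lone library was assumed to vary like WT, calls numbered 863 in all, 720 higher, 143 lower and 5 in the lists, with fewer libraries in the fit. Bnc1 itself was called lower in 13 of 14 alternatives (adjusted p = 0.059 without Bnc1tr/tr replicates 1 and 2). With the replicate block 3733 genes were called and the same number of members, 2, and the correlations of deviations between same-numbered libraries were 0.28, -0.03 and 0.12, with Bnc1tr/tr replicate 2 correlating best with WT replicate 3 (0.16). The methods compare littermates, but the labels tie no number to a litter, so the libraries were treated as sharing only a number. The cause of these changes, the smaller number of libraries in some fits included, was not tested. FPKM without counts limits precision for genes near 1 FPKM.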

Other observations

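Several genes of the pathway lists lay under the expression filter and were not tested. Cpeb2, a relative of Cpeb4, stood at 1.83, 1.38 and 1.90 FPKM in Bnc1tr/tr and at 0.11, 0.13 and 0.20 FPKM in WT. Tnrc6a stood at 1.65, 1.02 and 1.17 FPKM against 0.37, 0.49 and 0.39 FPKM, and Dcp1b, a decapping activator, at 0.63, 1.09 and 1.22 FPKM against 0.11, 0.29 and 0.04 FPKM. Tut4, the paralog of Tut7, was scarce in both genotypes, at 0.09 to 0.12 FPKM in Bnc1tr/tr and 0.15 to 0.31 FPKM in WT. These 4 genes were singled out after their values were seen.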
